A study of Mus musculus with 14 samples.

Results

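The effect of the Lyz2cre genotype on the transcriptome was compared between 2 sorted cell populations of the mouse colon, resident lamina propria macrophages and CD44+ epithelial cells. All 14 libraries of the series entered the comparison, in 4 groups. The cre groups came from Tsc2fl/fl Lyz2cre/+ mice and the wt groups from Tsc2fl/fl Lyz2+/+ controls without the recombinase, so every mouse carried the floxed Tsc2 allele. Macrophages (cre, n = 3; wt, n = 3) had been sorted as Cd45+ Ly6G- SiglecF- Cd24- Cd103- Cd11b+ Ly6C- Cd64+ MHCII+ cells, and epithelial cells (cre, n = 4; wt, n = 4) as Cd45- EpCAM+ Cd44+ cells. Lyz2cre places the recombinase at the lysozyme 2 locus, which is active in myeloid cells, so the epithelial comparison concerned cells next to the targeted population. The sample titles carry mouse numbers: mice 2, 4 and 6 gave wt macrophages, mice 8, 9 and 10 cre macrophages, mice 2, 4, 6 and 7 wt epithelium and mice 5, 8, 9 and 10 cre epithelium. Per-library values below follow that order. The design text of the series counts 3 control and 4 cre mice, which the titles of the 8 epithelial libraries do not match. Sex was not balanced. The cre macrophages were from 3 males and the wt macrophages from 2 females and 1 male (mouse 6). The epithelial groups had 3 males and 1 female (cre) and 2 of each sex (wt). With sex in the model, or in males alone, the macrophage change therefore rests on 1 wt library, that of mouse 6. Ages were not given in the sources used here, and nothing beyond the mouse numbers says how independent the samples were, so the p-values measure the spread between these samples.

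The genes described are those expressed in both populations: 7737 of the 16375 genes that could be tested for the difference, out of 55487 in the count table. A gene qualified when it passed the low-count filter within each cell type, reached a mean of at least 5 CPM (counts scaled to a common library size) in each, and had cell-type means within 16-fold of each other. The last condition set apart genes whose low level in one population could be carried over from the other; without it 7904 genes qualified. The means were taken over both genotypes, so a gene could reach 5 CPM through the genotype in which it was higher. For each gene 3 quantities were fitted on the log2 scale: the change in macrophages (cre against wt), the change in epithelial cells, and the difference of the 2 changes, macrophages minus epithelium. A quantity was called when its edgeR quasi-likelihood p, adjusted by the Benjamini-Hochberg method over all genes tested, was under 0.05.

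The protein product of Tsc2, tuberin, works in a complex that keeps the kinase mTORC1 switched off. Active mTORC1 promotes protein, lipid and nucleotide synthesis and glycolysis, and it controls lysosome biogenesis through the transcription factors TFEB and TFE3, which bind a palindromic DNA motif in the promoters of lysosomal genes. Macrophages are rich in lysosomes, which degrade the cells and matrix they take up, while CD44 marks the crypt compartment of the colon epithelium, where stem and progenitor cells lie.

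RefSeq promoter windows (GRCm38.p6, 250 bases before to 50 after the annotated start) were searched on both strands for the E-box CACGTG, and for TCACGTGA, a flanked form that contains it and reads the same on both strands. The E-box was found in 7.15% of all 32851 windows and in 10.9% of windows of genes expressed in both populations. Among lysosomal enzymes and membrane proteins 13 of 38 windows held it (34.2%). So did 4 of 13 windows (30.8%) of the genes called higher in macrophages and not called in epithelium, with a called difference. The flanked form occurred in 0.974% of all windows, in 2.34% of those of genes expressed in both populations, in 13.2% of the lysosomal list (5 of 38) and in 23.1% (3 of 13) of the latter genes. Among 13 windows of genes called in epithelium and not in macrophages, with a called difference, 1 held the E-box and 0 the flanked form. Ctsd and Ctsb, called in both populations, were in neither of these called sets. Among 11 windows of the genes called higher in both populations, 1 held the E-box (9.09%), a window of Ctsd, which also held the flanked form. The following windows are shown because they belong to genes whose changes differed between the cell types; capitals mark the matched motif, and each is written 5′ to 3′ on the strand of its gene.

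Ctsd, chr7:142387900-142387945, minus strand, 98 bases before the start: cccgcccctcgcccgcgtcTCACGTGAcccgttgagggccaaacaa

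Atp6v1a, chr16:44139365-44139410, minus strand, 131 bases before the start: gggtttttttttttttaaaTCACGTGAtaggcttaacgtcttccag

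Dpp7, chr2:25356380-25356425, minus strand, 73 bases before the start: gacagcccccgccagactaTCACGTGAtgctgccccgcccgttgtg

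Mfsd1, chr3:67582730-67582775, plus strand, 18 bases before the start: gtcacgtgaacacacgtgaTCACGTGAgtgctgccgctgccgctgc

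Lamp1, chr8:13159080-13159125, plus strand, 61 bases before the start: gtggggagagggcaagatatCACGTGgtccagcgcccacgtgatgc

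Wdr26, chr1:181212057-181212102, minus strand, 104 bases before the start: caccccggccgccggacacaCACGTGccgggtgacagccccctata

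Ctsd, Atp6v1a, Dpp7 and Mfsd1 carried the flanked form, Lamp1 the plain E-box in several copies, and Wdr26 1 plain copy. A match describes the letters in the window and not a binding event.

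Total counts per library ran from 7269103 to 9364551. The annotated ribosomal RNA gene took 19.1 to 26.4% of counts in the macrophage libraries. Among epithelial libraries that share was 18.5 to 31.8% in wt but 7.37, 8.52 and 10.6% in the cre libraries of mice 5, 9 and 10, and 26.7% in that of mouse 8, which stood apart from its group. Mitochondrially encoded genes took 11.6 to 18.1% of counts in wt epithelium and 10.4 to 10.7% in cre epithelium. The sort labels matched the markers. The summed level of 18 macrophage markers was 18705 to 27541 CPM in macrophages, and in epithelial libraries it was 57.9 to 106 CPM in cre and 91.9 to 173 CPM in wt. The summed level of 19 epithelial markers was 20446 to 31013 CPM in epithelial libraries and 99.4 to 648 CPM in macrophages. In these bulk samples fewer cells of a type and less RNA per cell cannot be told apart.

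Tsc2 itself differed little between the groups. Its level in macrophages was 42.9, 38.1 and 25.6 CPM in wt and 32.7, 35.7 and 26.9 CPM in cre, and the ranges overlapped. In epithelium it was 50.1, 46.0, 44.1 and 48.9 CPM in wt and 55.7, 53.3, 47.6 and 54.1 CPM in cre. The difference of the changes was -0.32 ± 0.23 (SE; edgeR adjusted p = 0.554). Reads counted over the whole gene include exons outside a floxed part, so this count does not check recombination. Lyz2, the lysozyme gene that carries the recombinase, did not meet the criterion for expression in both populations. Its level in epithelium was 27.0, 25, 41.2 and 42.4 CPM in wt and 9.97, 14.6, 11.1 and 16.4 CPM in cre, against 7302, 8753 and 8709.9 CPM in wt macrophages. Macrophage level times the ratio of summed macrophage markers (0.297% in cre, 0.597% in wt) came to 20.9 and 49.3 CPM, above the epithelial means of 13.0 and 33.9 CPM. Lyz2 is itself among the summed markers, so the ratio is not independent of its level.

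The genotype effect was called for few of the shared genes in macrophages and for many in epithelium. In macrophages 60 of the 7737 shared genes were called (0.775%), 54 higher in cre (0.698%) and 6 lower (0.0775%). In epithelium 990 were called (12.8%), 658 higher (8.5%) and 332 lower (4.29%). Over all genes tested the shares were 0.944% in macrophages (0.731% higher, 0.213% lower) and 9.17% in epithelium (5.64% higher, 3.53% lower). The difference of effects was called for 115 of 16375 genes (0.702%), 77 positive (0.47%) and 38 negative (0.232%). Among the shared genes it was called for 62 (0.801%), 39 positive (0.504%) and 23 negative (0.297%). The median standard error over the shared genes was 0.24 for the macrophage change, 0.16 for the epithelial change and 0.29 for the difference, so the same change is called more readily in epithelium. Median changes over the shared genes were 0.01 in both populations, a centre that the scaling of library sizes sets.

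Of the 62 shared genes with a called difference, 50 had fitted changes of opposite sign, 29 up in macrophages and down in epithelium and 21 the reverse, and 12 had changes of the same sign. Choosing genes by a large difference of the changes itself favours opposite signs. The called differences ran in size from 0.83 (H13) to 3.88 (Fabp5) with a median of 1.48. Genes called higher in macrophages had an epithelial change of the same sign in 40 of 54 cases, where 54.8% of all shared genes did, and 16 of them were also called higher in epithelium. Of the 658 genes called higher in epithelium, 453 had a change of the same sign in macrophages. Of the 332 called lower there, 206 did, and 0 were called lower in macrophages. Across the 7737 genes the changes in the 2 populations had a Pearson r of 0.107 and a Spearman rho of 0.122. The 6 mouse numbers found in both populations may mark shared animals, and genes are not independent.

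Epithelial changes moved with properties of the transcripts, and macrophage changes hardly did. Spearman's rho of the epithelial change with GC content was 0.405 and with transcript length -0.402, against 0.0208 and 0.0893 in macrophages, and the difference carried -0.294 and 0.352. Short, GC-rich transcripts thus tended to have higher fitted changes in epithelium. With the ribosomal RNA share as a term in the model 0 genes remained called in epithelium by edgeR (1665 at an unadjusted p under 0.05), 18 in macrophages and 9 for the difference. The share differed between the epithelial groups and its part in the results was not tested. Without the cre epithelial library of mouse 8, 78 shared genes had a called difference and 1537 were called in epithelium. With sex in the model 21 differences were called, 7 of them in shared genes, and 2 genes in macrophages.

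**Figure D1:**
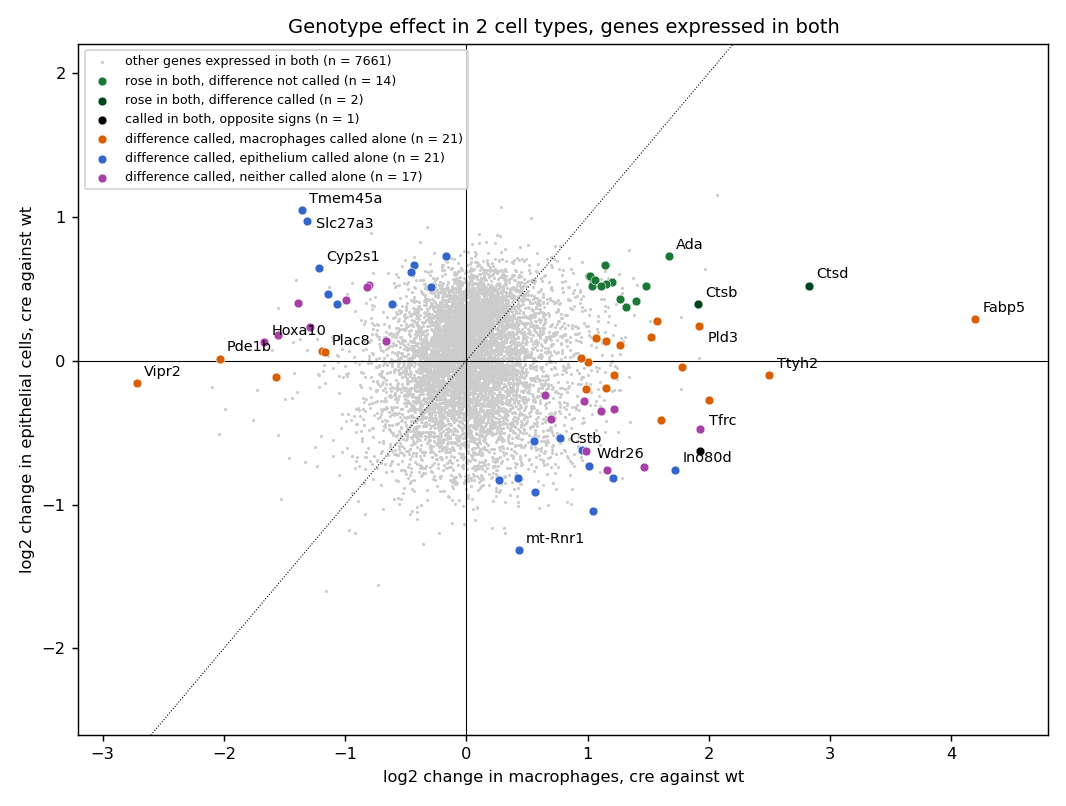
Each point is 1 of the 7737 genes expressed in both populations, with its log2 change in macrophages (cre against wt, x axis) and in epithelial cells (y axis), both from edgeR; colours mark the called classes and the dotted line equal changes. Fabp5 and Ctsd lie far to the right near or slightly above 0 on the y axis, and the genes with a called difference that were called in epithelium alone lie in the upper left and lower right of the plot.

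Effects that agreed. In all, 16 shared genes were called higher in cre in both populations, and 0 were called lower in both. The group held lysosomal proteases (Ctsd and Ctsb), ferritin light chain (Ftl1), a proton pump subunit (Atp6v0c) and metabolic enzymes. In each of the 16 the fitted macrophage change was the larger. The rule for named genes, which left out provisional names and genes annotated as pseudogenes, kept 10 of them. Ftl1-ps1, a copy of Ftl1, is among the 10 because it is annotated as protein coding. The difference of size was called for 2 of them, Ctsd and Ctsb, both lysosomal proteases.

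Cathepsin D (Ctsd, chromosome 7), an aspartic protease of the lysosome, stood at 733, 539 and 422 CPM in wt macrophages and at 4382, 3188 and 4280.3 CPM in cre macrophages. In epithelium it was 249, 223, 203 and 247 CPM in wt and 348, 304, 376 and 307 CPM in cre. The groups did not overlap in either population, but the gap was far wider in macrophages. The change was 2.83 ± 0.23 (SE; edgeR adjusted p = 0.000845) in macrophages and 0.52 ± 0.10 (adjusted p = 0.00989) in epithelium. The difference of 2.27 had a 95% interval of 1.75 to 2.79 (edgeR adjusted p = 0.000251).

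Cathepsin B (Ctsb), a lysosomal cysteine protease, was the more abundant. Its macrophage level was 4037, 3543 and 2981 CPM in wt and 14859.6, 11395 and 13054 CPM in cre. In epithelium it was 791, 779, 727 and 821 CPM in wt and 1137, 938, 1074 and 982 CPM in cre, again without overlap. The changes of 1.91 ± 0.18 and 0.39 ± 0.09 (SE) differed by 1.49 (95% interval 1.09 to 1.89; edgeR adjusted p = 0.00127).

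Some macrophage RNA was present in the epithelial libraries, and it can be set beside these rises. The macrophage level of Ctsd times the marker ratio came to 11.7 CPM in cre and 3.37 CPM in wt, or 3.51% and 1.46% of the mean epithelial level. For Ctsb it was 3.76% and 2.7%. For the other named genes of this class that share was between 0.091% (Sord) and 1.69% (Cndp2). The marker sum itself was lower in cre than in wt epithelium, and 13 of the 14 macrophage markers tested in epithelium had a negative change there. The exception was Ms4a7 (0.43, edgeR adjusted p = 0.341), which was called higher in cre macrophages (1.49). Single markers varied in their ratio. Cre epithelium held 8.47 CPM of Mertk and 9.59 CPM of C1qb, and cre macrophages 42.6 and 4373 CPM. The part of carried-over RNA in the epithelial rises was not tested.

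Ferritin light chain (Ftl1), part of the shell that stores iron, was 1165, 1174 and 1070.1 CPM in wt and 2804, 1901 and 2261 CPM in cre macrophages. In epithelium the levels were 656, 584, 666 and 605 CPM in wt and 1072, 793, 992 and 869 CPM in cre. The groups did not overlap in either population. The difference of 0.46 between its changes of 1.04 and 0.56, with a 95% interval of 0.04 to 0.88, was not called (edgeR adjusted p = 0.285). Atp6v0c, the proteolipid ring subunit of the vacuolar proton pump, which acidifies lysosomes, was 384, 342 and 351 CPM in wt and 1007, 610.0 and 754 CPM in cre macrophages. Its epithelial levels were 167, 147, 182 and 139 CPM in wt and 247, 207, 244 and 227 CPM in cre. The changes of 1.15 and 0.53 differed by 0.59 (95% interval 0.13 to 1.05; edgeR adjusted p = 0.212). Both genes have near-identical pseudogene copies among the 16 (Ftl1-ps1, Ftl1-ps2, Atp6v0c-ps1, Atp6v0c-ps2), so short reads could be split between copies and these rows are not independent.

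The remaining named genes of the class showed the same order of sizes. Galnt6, an enzyme that starts O-linked glycan chains on mucin-type proteins, was one of the few that stood higher in epithelium than in macrophages. It was 22.9, 23.9 and 20.6 CPM in wt and 74.9, 51.0 and 60.9 CPM in cre macrophages, and 79.1, 107, 87.5 and 91.3 CPM in wt and 128, 119, 134 and 146 CPM in cre epithelium. The difference between its changes of 1.48 and 0.52 just missed the threshold (edgeR adjusted p = 0.0556). Sord, sorbitol dehydrogenase, changed by 1.27 and 0.43. Cndp2, a cytosolic dipeptidase, changed by 1.11 and 0.52, and Serpinb6a, a serine protease inhibitor, by 1.32 and 0.37. Ada, adenosine deaminase, changed by 1.67 and 0.72, and it alone among the 10 overlapped between the epithelial groups, where the lowest cre library (14.3 CPM, mouse 8) lay below the highest wt library (15.6 CPM). Separate groups are favoured by the choice of genes with a called change, so they are no trait of this class.

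The membership of this class depended on few libraries. Counting also the single gene called with opposite signs, 17 genes were called in both populations. The count was 2 without the macrophage libraries of mouse 2, 6 or 10 or without the cre epithelial library of mouse 9, 3 and 4 without the macrophage libraries of mice 4 and 8, 8 and 10 without the cre epithelial libraries of mice 5 and 10, and 0 with sex or the ribosomal RNA share in the model or in males alone. With the trend on GC content and length removed it was 3.

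Effects called in macrophages with a called difference. There were 21 shared genes called in macrophages and not in epithelium that had a called difference, 16 positive and 5 negative. The positive ones included lysosomal membrane and luminal proteins (Lamp1, Cd63, Grn, Pld3, Dpp7), a proton pump subunit (Atp6v1a), a fatty acid carrier (Fabp5) and a cytosolic enzyme of NADPH supply (Idh1).

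Fabp5, which carries fatty acids in the cytosol, had the largest difference of all shared genes. Macrophages held 12.6, 9.15 and 10.5 CPM in wt and 268, 139.6 and 180.1 CPM in cre. Epithelium held 6.85, 8.09, 7.73 and 6.43 CPM in wt and 8.76, 8.11, 10.4 and 8.5 CPM in cre. The epithelial groups were separate but close together, and the macrophage groups were more than 10-fold apart. The changes were 4.20 ± 0.27 and 0.29 ± 0.18 (SE; edgeR adjusted p = 0.000371 and 0.333). Their difference of 3.88 (95% interval 3.26 to 4.51; edgeR adjusted p = 4.27e-06) stayed between 3.57 and 4.08 and called under all 27 alternatives. Carry-over computed from the markers would amount to 0.581 CPM of Fabp5 in cre epithelium, 6.51% of its level there.

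Ttyh2, which encodes a membrane protein of the tweety family, rose in macrophages from 14.1, 20.8 and 15.4 CPM in wt to 118, 74.8 and 89.4 CPM in cre. Epithelial levels were 26.3, 19.0, 34.4 and 21.3 CPM in wt and 23.8, 25.3, 24.7 and 20.9 CPM in cre, and these overlapped. Cre macrophages thus exceeded epithelium, whereas wt macrophages lay at or below it. The difference was 2.58 (95% interval 1.94 to 3.22; edgeR adjusted p = 0.000559).

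Pld3, a lysosomal exonuclease of the phospholipase D family, was 141, 157 and 131 CPM in wt and 638, 463 and 498 CPM in cre macrophages. Epithelial levels were 38.0, 36.3, 34.8 and 39.3 CPM in wt and 42.6, 42.8, 52.6 and 39.2 CPM in cre, with a narrow overlap. The change of 1.91 in macrophages was not matched in epithelium (0.24, edgeR adjusted p = 0.223), and the difference was 1.65 (95% interval 1.23 to 2.06). Grn, the precursor of the lysosomal granulins, was 1356, 1295 and 1251 CPM in wt and 3576, 2679 and 3060.1 CPM in cre macrophages. Its epithelial levels were 156, 157, 169 and 178 CPM in wt and 163, 173, 201 and 181 CPM in cre. The difference was 1.13 (edgeR adjusted p = 0.00738).

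Atp6v1a, the catalytic subunit of the vacuolar proton pump, was 198, 156 and 193 CPM in wt and 422, 324 and 327 CPM in cre macrophages, and 51.4, 55.8, 38.6 and 48.5 CPM in wt and 50.0, 41.0, 41.0 and 39.2 CPM in cre epithelium. The macrophage change of 0.99 and the epithelial change of -0.20 (edgeR adjusted p = 0.361) differed by 1.16 (95% interval 0.70 to 1.61). Dpp7, a lysosomal dipeptidyl peptidase, showed a difference of 1.33 and Slc37a2, a sugar phosphate transporter, one of 2.0. Gdpd1, a lysophospholipase D, was lower in wt macrophages (9.39, 14.8 and 24.6 CPM) than in wt epithelium (135, 125, 116 and 121 CPM), and it rose to 50.1, 60.7 and 54.7 CPM in cre macrophages with no called change in epithelium (difference 1.80). Tmem65, a mitochondrial membrane protein, and Mroh1 had differences of 2.25 and 1.31.

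The 5 genes with a called fall in macrophages and a called negative difference were Vipr2, Pde1b, Fhl2, Glipr2 and Plac8. Vipr2, a receptor for vasoactive intestinal peptide, fell from 40.6, 24.9 and 24.2 CPM in wt to 3.25, 5.47 and 4.61 CPM in cre macrophages. In epithelium it was 9.43, 5.03, 5.73 and 3.21 CPM in wt and 3.9, 7.99, 4.74 and 4.66 CPM in cre. Cre macrophages thus came down to the epithelial level, and the difference was -2.59 (95% interval -3.64 to -1.54; edgeR adjusted p = 0.0223). Pde1b, a phosphodiesterase that degrades cyclic nucleotides, was 74.6, 60.3 and 39.6 CPM in wt and 15.9, 14.7 and 11.5 CPM in cre macrophages, against 8.75, 6.02, 7.01 and 10.7 CPM in wt and 12.2, 6.7, 6.84 and 7.31 CPM in cre epithelium. Its difference was -2.08 (edgeR adjusted p = 0.0188). Plac8, a small cysteine-rich protein of myeloid and epithelial cells, was alike in the wt groups, 194, 188 and 134 CPM in macrophages and 126, 141, 162 and 134 CPM in epithelium. It fell to 65.5, 87.7 and 73.7 CPM in cre macrophages and was 161, 155, 137 and 136 CPM in cre epithelium (difference -1.25, edgeR adjusted p = 0.0127). Fhl2, a LIM domain cofactor, and Glipr2 had differences of -1.48 and -1.28.

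Marker sums of some other cells were also lower in the cre macrophage libraries. The summed level of 12 fibroblast and smooth muscle markers was 1194 to 3146 CPM in cre and 3625 to 6172 CPM in wt macrophages. That of 8 dendritic cell markers was 780.4 to 939 CPM in cre and 1213 to 2304 CPM in wt. Of these 20 markers 0 were at 0 in all macrophage libraries of a group. The corresponding sums in epithelium were 2.28 to 8.02 CPM for fibroblasts and 31.1 to 48.9 CPM for dendritic cells. Within the first list Acta2 (0.04), Des (0.01), Myh11 (-0.02) and Pdgfra (0.22) did not fall clearly in macrophages. EdgeR called 0 of 11 tested fibroblast and smooth muscle markers and 1 of 8 dendritic ones. T cell marker sums (8.21 to 10.3 CPM in cre, 18.1 to 21.5 CPM in wt) were lower too. So were granulocyte sums (49.5 to 60.3 and 77.4 to 99.7 CPM). Sums of B cell and of endothelial markers overlapped between the genotypes. The part of these cells in the falls was not tested.

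**Figure D2:**
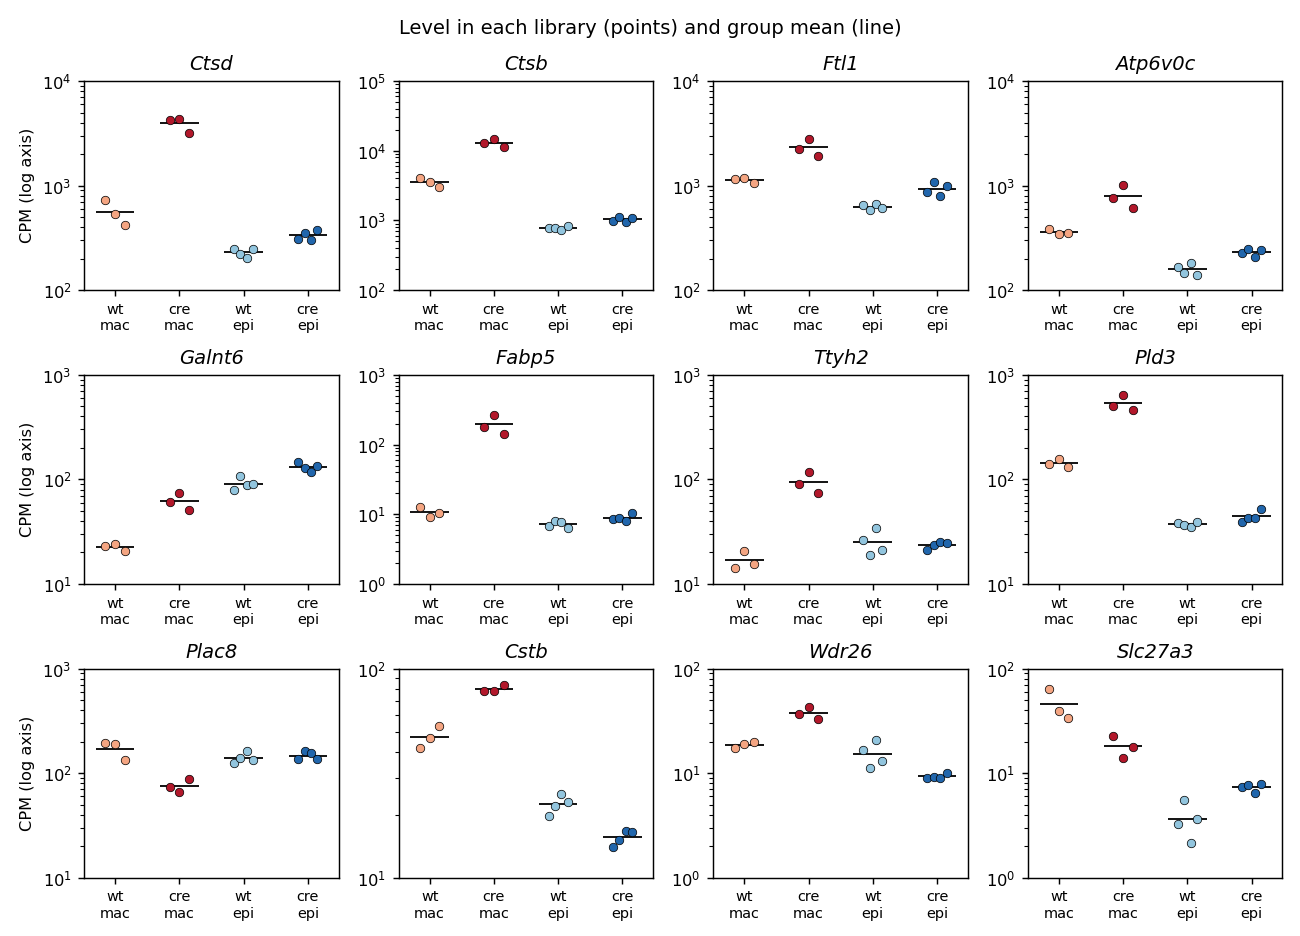
Level of 12 genes in each library (points; CPM on a log axis) with the group mean (line), for wt and cre macrophages (mac) and wt and cre epithelial cells (epi). Ctsd, Ctsb, Ftl1, Atp6v0c and Galnt6 are higher in cre in both populations, Fabp5, Ttyh2 and Pld3 rise steeply in macrophages, Plac8 falls there, and Cstb, Wdr26 and Slc27a3 move in opposite directions.

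Effects of opposite sign. A single shared gene, the provisional model Gm38394, was called in both populations with opposite signs, at 1.92 in macrophages and -0.63 in epithelium (difference 2.53). It lies outside the rule for named genes and is given because it is the single member of its class. Another 21 shared genes were called in epithelium, not in macrophages, and had a called difference, 11 positive and 10 negative. In all 21 the fitted macrophage change had the opposite sign to the epithelial one, so a difference was called in none of the genes that were called in epithelium alone and moved the same way in macrophages. The choice by a called difference favours opposite signs.

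Cstb, cystatin B, a cytosolic inhibitor of cathepsins including cathepsin B, was called lower in epithelium, where Ctsb was called higher. Its macrophage levels were 41.9, 46.5 and 53.0 CPM in wt and 78.5, 83.7 and 77.8 CPM in cre. Its epithelial levels were 19.6, 22, 25.1 and 23.1 CPM in wt and 15.2, 16.8, 16.5 and 14 CPM in cre. The groups did not overlap in either population. The epithelial change of -0.54 was called (edgeR adjusted p = 0.0337), the macrophage change of 0.78 was not (adjusted p = 0.0707), and the difference was 1.29 (95% interval 0.87 to 1.70; adjusted p = 0.00738).

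Wdr26, a subunit of a ubiquitin ligase complex, was 17.2, 19.2 and 19.8 CPM in wt and 43.1, 33.0 and 36.4 CPM in cre macrophages. In epithelium it was 16.5, 11.3, 20.6 and 13.2 CPM in wt and 9.19, 8.93, 10.1 and 9.04 CPM in cre. Starting from similar wt levels, the populations ended about 4-fold apart in cre, with a difference of 1.72 (edgeR adjusted p = 0.0114). Ino80d, a subunit of a chromatin remodelling complex, was 2.14, 3.84 and 4.65 CPM in wt and 13.2, 9.58 and 12.1 CPM in cre macrophages, and 13.1, 10.3, 10 and 6.75 CPM in wt and 6.24, 5.64, 5.44 and 6.58 CPM in cre epithelium. Its order between the populations was reversed by genotype, and the difference was 2.46 (95% interval 1.61 to 3.31; edgeR adjusted p = 0.0114). All its wt macrophage levels lay under 5 CPM, so it met the expression criterion in macrophages through the cre libraries.

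Slc40a1, ferroportin, the exporter of iron from cells, was 24.8, 46.8 and 22.7 CPM in wt and 84.5, 72.3 and 59.2 CPM in cre macrophages. Epithelial levels were 13.5, 16, 28.9 and 17.2 CPM in wt and 9.54, 14.1, 9.12 and 10.5 CPM in cre, with an overlap. The changes of 1.21 (edgeR adjusted p = 0.113) and -0.82 (adjusted p = 0.0426) differed by 2.0. Tfrc, the transferrin receptor that brings iron in, was called in neither population alone and had a called difference of 2.36 (95% interval 1.5 to 3.22; edgeR adjusted p = 0.0127). It was 7.72, 2.95 and 4.38 CPM in wt and 13.5, 19.0 and 24.2 CPM in cre macrophages, and 41.9, 29.8, 22 and 30.7 CPM in wt and 19.4, 22, 23.7 and 25.4 CPM in cre epithelium.

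Itga6, the integrin alpha 6 chain that anchors epithelium to its basement membrane, fell in epithelium (51.5, 49.1, 51.0 and 36.6 CPM in wt, 30.6, 30.2, 29.3 and 33.4 CPM in cre). In macrophages it was 6.3, 6.2 and 6.51 CPM in wt and 6.67, 16.4 and 13.2 CPM in cre, with 1 cre library near the wt level. The difference was 1.55 (edgeR adjusted p = 0.0367).

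Rises in epithelium set against lower macrophage levels were led by Tmem45a, Slc27a3 and Cyp2s1. Slc27a3, a long-chain acyl-CoA synthetase of the fatty acid transport family, was 64.2, 39.7 and 33.5 CPM in wt and 13.9, 17.9 and 22.6 CPM in cre macrophages. In epithelium it was 3.25, 5.58, 2.15 and 3.64 CPM in wt and 7.63, 6.46, 7.81 and 7.31 CPM in cre. The groups did not overlap in either population, and the difference was -2.32 (95% interval -3.17 to -1.47; edgeR adjusted p = 0.0127). Tmem45a, a transmembrane protein, was 14.7, 21.5 and 12.9 CPM in wt and 2.91, 9.7 and 6.21 CPM in cre macrophages. In epithelium it was 4.04, 4.27, 3.58 and 2.57 CPM in wt and 8.59, 6.7, 8.33 and 6.49 CPM in cre (difference -2.42). The mean wt epithelial levels of Slc27a3 and Tmem45a, 3.66 and 3.61 CPM, lay under 5 CPM. Both genes thus met the expression criterion in epithelium through the cre libraries, where they were higher.

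Cyp2s1, a cytochrome P450 of surface epithelia, was 65.9, 77.8, 96.9 and 77.6 CPM in wt and 129, 104, 143 and 124 CPM in cre epithelium. Its macrophage levels were 40.4, 35.4 and 18.2 CPM in wt and 12.5, 10.6 and 17 CPM in cre, so the wt male (mouse 6) lay close to the cre libraries, all of them male. With sex in the model the difference of -1.89 moved to -1.08 (edgeR adjusted p = 0.207). Gstm2, a glutathione transferase, had a difference of -1.48, and Nelfcd, a subunit of the negative elongation factor, one of -1.13. Rogdi, a protein linked to assembly of the vacuolar proton pump, had one of -1.10. In the other direction mt-Rnr1, the small mitochondrial ribosomal RNA, was 1592, 1821, 2725 and 1047 CPM in wt and 669, 758, 775 and 709 CPM in cre epithelium. Macrophages held 469, 663 and 719.8 CPM in wt and 1173, 652 and 661 CPM in cre, and these overlapped (difference 1.73, edgeR adjusted p = 0.0467).

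Another 17 shared genes had a called difference with neither population called alone, 9 positive and 8 negative. Again all had changes of opposite sign, which the choice by a called difference favours. Beside Tfrc these genes included Cdc42ep5, an effector of the GTPase Cdc42. It was 22.5, 23.5 and 13.8 CPM in wt and 5.64, 8.33 and 8.43 CPM in cre macrophages, and 86.6, 95.1, 123 and 117 CPM in wt and 146, 129, 148 and 137 CPM in cre epithelium. The difference was -1.81 (95% interval -2.40 to -1.23; edgeR adjusted p = 0.00738). Nktr, a cyclophilin-related protein, and Rtn4, the reticulon that shapes the endoplasmic reticulum, had differences of 1.90 and 1.44, and the homeobox gene Hoxa10 one of -1.81.

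Of 42 shared genes for lysosomal proteases, hydrolases and membrane proteins, 9 were called higher in macrophages and 0 lower. Over all shared genes 0.698% were called higher there and 0.0775% lower. The median macrophage change of the list was 0.62, where all shared genes had 0.01. In epithelium 5 of 42 were called higher, where 8.5% of all shared genes were, and 0 lower, with a median of 0.20. The difference was called positive for 6 and negative for 0, where 0.504% and 0.297% of all shared genes were. Its median was 0.46 against -0.04 over all shared genes. Called positive were Ctsd, Ctsb, Grn, Tpp1, Cd63 and Lamp1. Called higher in epithelium were, beside Ctsd and Ctsb, the hydrolases Fuca1 (0.38), Acp5 (0.50) and Gaa (0.48). The 3 medians kept their sign under all alternatives run. With sex in the model 0 members were called in macrophages and 2 for the difference, and the difference was called for 1 with the mouse number as a block or in males alone. The epithelial count was 0 with the ribosomal RNA share in the model or in males alone, 1 with the GC and length trend removed, and 1 to 9 without single libraries (1 without cre mouse 9, 2 without cre mouse 5). Without single libraries 2 to 6 were called in macrophages (2 without cre mouse 10, wt mouse 4 or wt mouse 6, 3 without cre mouse 8 and 4 without wt mouse 2).

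Among the 17 shared subunits of the vacuolar proton pump the difference was called in both directions. Over all shared genes 0.698% were called higher in macrophages and 8.5% in epithelium. The difference was called positive for 0.504% of them and negative for 0.297%. In macrophages 15 of 17 changes were positive (median 0.57), with Atp6v1a and Atp6v0c called. In epithelium 8 of 17 were positive, with a median of -0.04 that changed sign under 12 of 19 alternatives, and Atp6v0c, Atp6ap1 (0.41), Atp6v0e2 (0.72) and Atp6v1e1 (0.38) were called higher. The difference was called positive for Atp6v1a and Atp6v1b2 (1.07, edgeR adjusted p = 0.0282) and negative for Atp6v0a2 (-0.83, adjusted p = 0.0347), a membrane subunit isoform. Its macrophage levels were 84.4, 71.6 and 76.4 CPM in wt and 49.1, 45.2 and 50.6 CPM in cre. The macrophage count was 0 without any one of cre mice 8 and 10 and wt mice 2, 4 and 6, and 1 without cre mouse 9. It was also 0 with sex or the ribosomal RNA share in the model and in males alone. The epithelial count was 0 without cre mouse 9, with the ribosomal RNA share in the model or in males alone, and 1 without cre mouse 5 or with the GC and length trend removed. With sex, the ribosomal RNA share or the mouse number in the model, and in males alone, 0 of the differences were called.

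Glycolytic enzymes were called in epithelium and not in macrophages, but no single difference was called. Of 16 shared genes 11 were called higher in cre epithelium, where 8.5% of all shared genes were. The 11 included Tpi1 (0.59), Pgam1 (0.57), Eno1 (0.54), Pkm (0.51) and Gapdh (0.47). In macrophages 0 of 16 were called, 8 changes were positive and the median was 0.01, a value that changed sign under 5 of 17 alternatives; 0 were under an unadjusted p of 0.05 and DESeq2 called 0. The difference was negative for 15 of 16, with a median of -0.48. By edgeR 0 of these differences were called, 7 were under an unadjusted p of 0.05, and DESeq2 called 0. The smallest adjusted p of the difference within the list belonged to Aldoc (0.169; difference -0.84). The epithelial count was 4 with the GC and length trend removed, 0 with the ribosomal RNA share in the model or in males alone, and 2 to 10 without single libraries, with 2 without cre mouse 9. The median difference was -0.30 with sex in the model and -0.21 in males alone.

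Of 55 shared nuclear genes of oxidative phosphorylation 20 were called higher in cre epithelium and 1 lower (Cox7c, -0.42), with a median of 0.27. Over all shared genes 8.5% were called higher there and 4.29% lower. Examples of the 20 were Ndufa10 (0.51), Ndufb9 (0.52), Cox5a (0.50) and Uqcrc1 (0.46). In macrophages edgeR called 0 (median 0.05; 3 at an unadjusted p under 0.05; DESeq2 0). For the difference it called 0 (median -0.14; 10 at an unadjusted p under 0.05; DESeq2 2). Of the 11 shared mitochondrially encoded genes 9 were called lower in cre epithelium and 0 higher, with a median of -0.78 and values such as -0.90 for mt-Nd5, -0.85 for mt-Co1 and -0.74 for mt-Cytb. In macrophages edgeR called 0 (1 at an unadjusted p under 0.05; DESeq2 0), with a median of 0.15 that changed sign under 3 of 17 alternatives. The difference was positive for all 11 with a median of 0.93, called by edgeR for mt-Rnr1 alone and by DESeq2 for 5. With the GC and length trend removed 3 nuclear genes stayed called higher and 5 mitochondrial ones lower. With the ribosomal RNA share in the model both counts were 0, as they were in males alone. The epithelial medians of the nuclear and mitochondrial genes were then 0.146 and -0.996 with that share in the model. In males alone they were 0.268 and -0.558. Without cre mouse 9 the counts were 4 and 5, and without cre mouse 5 they were 5 and 5.

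Of 21 genes of the ATF4 response and amino acid supply 4 were called higher in epithelium (Sars, Gars, Wars and Slc3a2; 0.38 to 0.48; median of the list 0.34) and 0 in macrophages (median 0.02; 3 at an unadjusted p under 0.05; DESeq2 0). Of the 21 differences 19 were negative and edgeR called 0 (8 at an unadjusted p under 0.05; DESeq2 1). The epithelial count was 0 without cre mouse 5 or cre mouse 9, with the GC and length trend removed, with the ribosomal RNA share in the model and in males alone. Of 31 proteasome subunits 5 were called higher in epithelium and 0 in macrophages, and the epithelial count was 0 without cre mouse 5 or cre mouse 9. The share to set beside the ATF4 and proteasome counts in epithelium is 8.5%, that called higher over all shared genes. Of 49 cytosolic ribosomal proteins 4 were called higher and 4 lower in epithelium and 0 in macrophages, where 8.5% of all shared genes were called higher and 4.29% lower in epithelium. The ribosomal protein counts lie near those shares. Of 20 genes of the antioxidant response, Ftl1 and Prdx1 were called higher in macrophages and Ftl1, Gstm1 and Pgd in epithelium. Over all shared genes 0.698% were called higher in macrophages and 8.5% in epithelium.

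The remaining lists held few calls. Over all shared genes 8.5% were called higher and 4.29% lower in epithelium. In macrophages these shares were 0.698% and 0.0775%. The cell cycle and interferon counts below lie near the epithelial shares. Among 15 genes of lipid handling, Fabp5 and Lgals3 (1.38) were called higher in macrophages and Lpl (0.69) in epithelium, with 1 called difference, that of Fabp5. Of 23 genes of mTORC1 and its regulators, Lamtor5 (0.56) was called higher in epithelium and 0 in macrophages, and of 26 autophagy genes Atg7 (0.56) in epithelium and 0 in macrophages. Sterol and fatty acid synthesis had 1 call of 27 (Msmo1, -1.02, in epithelium), the cell cycle 3 of 27 (Tyms 0.47, Birc5 0.63 and Top2a -0.58, in epithelium), the interferon response 1 of 11 (Oas1a, 0.48, in epithelium) and immediate early and heat shock genes 1 of 16 (Fosb, -0.82, in epithelium). Apart from lipid handling, edgeR called 0 differences in each list of the preceding sentences and in the proteasome, ribosomal and antioxidant lists. Between 1 (sterol synthesis) and 6 (cell cycle) differences a list were under an unadjusted p of 0.05, and DESeq2 called 1 in autophagy, 1 in the interferon response and 0 in the others. MHC class II genes had 0 members expressed in both populations.

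**Figure D3:**
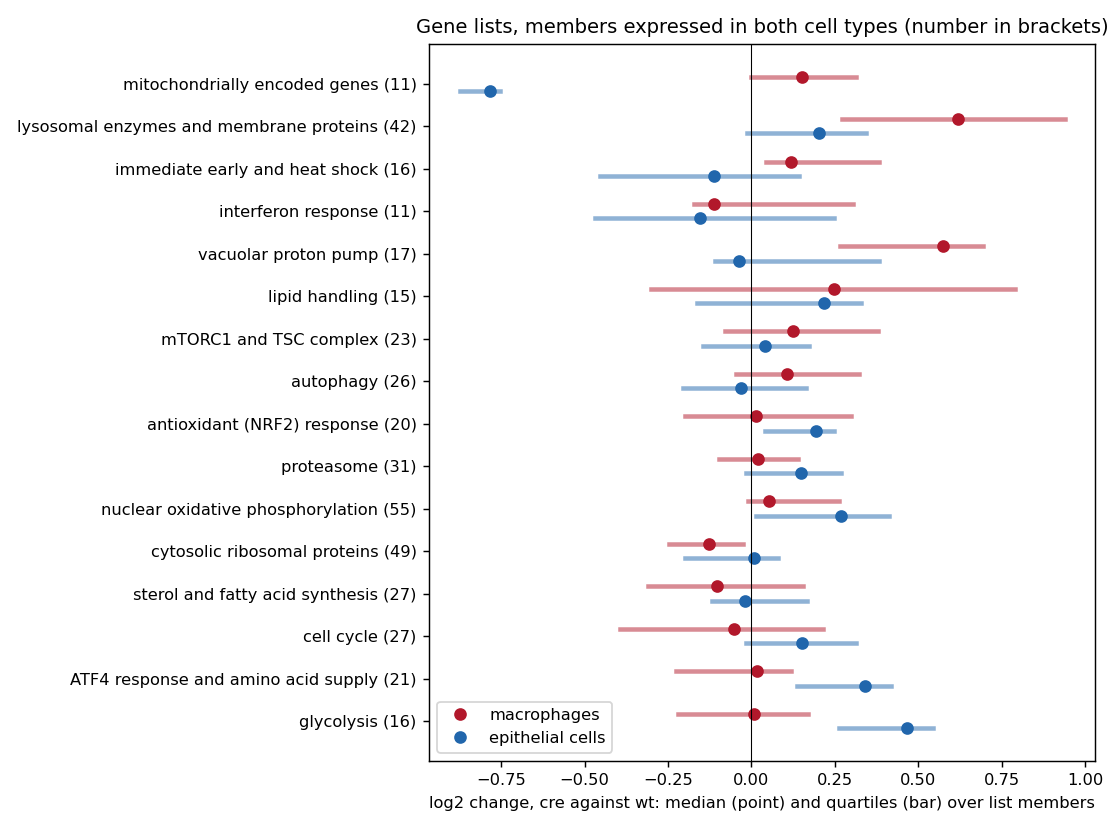
Median (point) and quartiles (bar) of the log2 change, cre against wt, over the members of each list that are expressed in both populations, for macrophages and epithelial cells; lists are ordered by the median difference. Mitochondrially encoded and lysosomal genes lie to the right in macrophages relative to epithelium, and glycolytic and ATF4 genes to the left.

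A call in one population alone did not as a rule come with a called difference. Of the 990 shared genes called in epithelium 24 had a called difference, and 952 were called there alone without one. In 309 of these 952 the macrophage change had the opposite sign. Of the 60 called in macrophages 24 had a called difference, and 22 were called there alone without one. These included Lgals3, Ctsl (1.21 in macrophages, 0.18 in epithelium) and Hexa (0.90 and 0.18). For such genes the data do not show that the effects differ, and with a median standard error of 0.29 they do not show that they are alike either.

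The called differences of named genes varied in how far they held up. Of 37 named genes with a called difference, Ctsd and Fabp5 were called under all 27 alternatives, Ttyh2 under 26, and Ctsb and Pld3 under 25. With sex in the model 5 of the 37 were called, in males alone 3, and with the ribosomal RNA share in the model 4. The settings with sex in the model and with males alone are not separate checks of the macrophage change. In both it rests on the same 1 wt macrophage library. The difference of Ctsd was 2.67 with sex in the model (edgeR adjusted p = 0.00247) and 2.65 in males alone. That of Ctsb was 1.71 (edgeR adjusted p = 0.0126) and 1.74, and that of Cstb 1.15 (edgeR adjusted p = 0.0824) and 1.17. With the mouse number as a block, 8 differences were called over all genes and 3 among the 37 named ones, those of Fabp5 (3.88), Ttyh2 (2.61) and Ctsd (2.29).

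**Figure D4:**
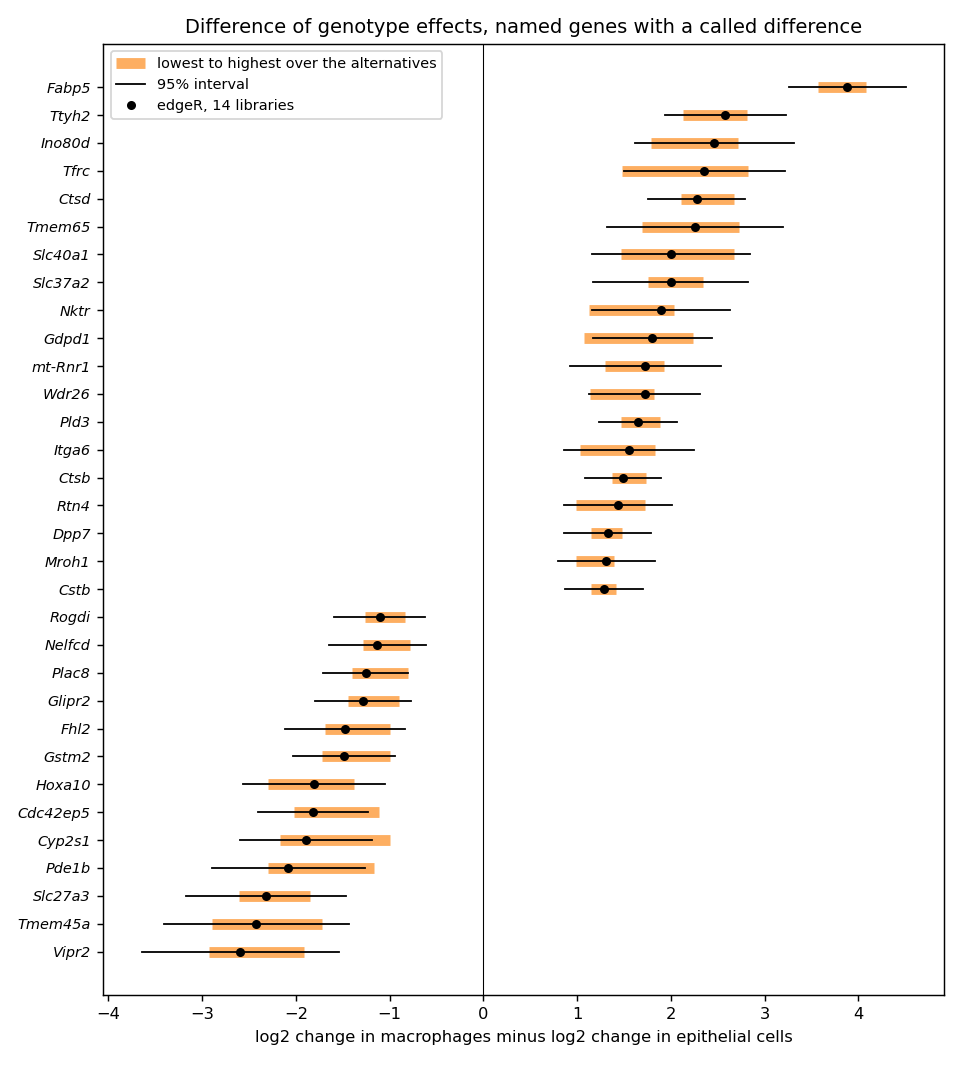
Difference of the genotype effects, macrophages minus epithelium (log2), for the named genes with a called difference outside the lists, apart from 1 that is not reported: edgeR estimate (point), 95% interval (line) and range over the alternatives (bar). All bars stay on one side of 0, and that of Fabp5 lies furthest from it.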

How the data were processed

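RNA from sorted macrophages and CD44+ epithelial cells had been amplified by Smart-seq2 and sequenced as 50-base single reads, per the labels' protocols. The build GRCm38 and the tools DESeq2 1.24.0, Picard 2.19.2 and STAR 2.5.2b are named per the submitters' processing notes. Which tool counted the reads, and with what strand setting, is not given in the sources used here, so overlapping and antisense genes cannot be told apart. The authors deposited whole-number read counts per gene and, separately, FPKM values, each of which is the deposited count over the product of 1 gene-specific and 1 library-specific value. Total counts were 7269103 to 9364551 per library.

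Counts were analysed in R 4.3.3 with edgeR 4.0.16 (filterByExpr at a minimum count of 10, TMM scaling, robust quasi-likelihood fit, Benjamini-Hochberg adjustment). Each cell type was fitted alone for its genotype effect, and all 14 libraries together for the difference, without a block. CPM levels are TMM-scaled. Alternatives were RLE scaling, DESeq2 1.42.0, limma 3.58.1 (voom, and log2 of FPKM with pseudocounts of 1 and 0.1), other filters, sex, ribosomal RNA share, GC content and length, the mouse number as a block, and each library left out. Scripts were tested on simulated data. Replicates of a group differed by more than sampling noise (smallest chi-square per degree of freedom 6.20). The members, lists and several alternatives were chosen with earlier results of these data known. Named genes were the leading ones of each class by p or size, without genes annotated as pseudogenes, provisional names and sex-linked genes, and the called members of the lists. Promoter sequences are from RefSeq (GRCm38.p6). They covered 33 of 42 lysosomal genes and 7 of the 16 genes called in both populations. Values of 1 named gene with a called difference, which is included in the counts, are not reported here.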

Additional observations from a re-analysis of the deposited data

Results flagged for a closer look

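The genotype effect differed between macrophages and epithelium by a test of the difference itself for 115 genes. Among named genes higher in cre macrophages relative to epithelium were the lysosomal genes Ctsd (2.27), Ctsb (1.49), Pld3 (1.65), Dpp7 (1.33) and Grn (1.13), and the proton pump subunits Atp6v1a (1.16) and Atp6v1b2 (1.07). The same direction held for Fabp5 (3.88), Ttyh2 (2.58), Tmem65 (2.25), Slc37a2 (2.0), Gdpd1 (1.80), Mroh1 (1.31), Ino80d (2.46), Slc40a1 (2.0), mt-Rnr1 (1.73), Wdr26 (1.72), Itga6 (1.55), Cstb (1.29), Tfrc (2.36), Nktr (1.90) and Rtn4 (1.44). The difference was negative for Vipr2 (-2.59), Pde1b (-2.08), Fhl2 (-1.48), Glipr2 (-1.28), Plac8 (-1.25), Tmem45a (-2.42), Slc27a3 (-2.32), Cyp2s1 (-1.89), Gstm2 (-1.48), Nelfcd (-1.13), Rogdi (-1.10), Cdc42ep5 (-1.81), Hoxa10 (-1.81) and Atp6v0a2 (-0.83). All values are log2 changes in macrophages minus those in epithelium.

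Single epithelial libraries stood apart from the other 3 of their group by Dixon's test in 6 of 92 groups of values, where chance gives about 1 in 20 (4.6). In cre epithelium these were Serpinb6a in mouse 8 (249.5 CPM), Pde1b in mouse 5 (12.2 CPM), Hoxa10 in mouse 9 (32.9 CPM) and the ribosomal RNA share in mouse 8 (26.7%). In wt epithelium they were Itga6 in mouse 7 (36.6 CPM) and Gstm2 in mouse 6 (107 CPM).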

How the results depend on the processing

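Over all genes 115 differences, 133 macrophage changes and 1243 epithelial changes were called, and 17 shared genes in both populations. In that order the counts were 504, 485, 1860 and 56 by DESeq2, 195, 299, 1818 and 41 without a filter, 164, 238, 2382 and 36 by voom, and 297, 153, 1388 and 22 on log2(FPKM + 1). They were 21, 2, 1469 and 0 with sex in the model, 18, 32, 5 and 0 in males only, 112, 155, 414 and 3 with the GC and length trend removed, and 9, 18, 0 and 0 with the ribosomal RNA share in the model. The cause of these shifts was not tested.

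The split of the differences into positive and negative was 77 and 38, against 70 and 53 with RLE scaling, 133 and 164 on log2(FPKM + 1) and 71 and 79 on log2(FPKM + 0.1). In epithelium 765 genes were higher and 478 lower, against 1142 and 246, and 1128 and 235, on the FPKM scales. Leaving out single libraries gave 54 to 229 differences (54 without cre epithelium of mouse 5, 229 without wt macrophages of mouse 6), 29 to 87 macrophage changes (29 without cre mouse 10, 87 without cre mouse 9), 178 to 1947 epithelial changes (178 without cre mouse 9, 1947 without cre mouse 8) and 2 to 24 genes called in both.

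With the mouse number as a replicate block 8 differences were called, and 10 in the 6 mice with both populations without the block. Same-numbered libraries did not deviate together (r from -0.145 to 0.0868, 0 of 6 pairs over 0.1), and 2 of 6 macrophage libraries correlated best with their own number. The labels do not state that a number marks 1 animal in both populations. The difference for Tsc2, not called, turned from -0.32 to 0.136 with sex in the model and 0.126 in males only. In both of these settings the macrophage change rests on 1 wt library. Depth limits the shared genes near 5 CPM most, and with 3 macrophage libraries a group an absent call does not show an absent change.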
